A study of Homo sapiens with 21 samples.

Results

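The locus described here is that of RBPJ, on chromosome 4, 1 of 51 gene loci of the series that were used. It was chosen by a measured value, the higher contact of its promoter with its enhancer at 96 h than at 0 h, so that every value of that contrast from the enhancer is given below as a description only. All 7 files of the locus were used, of the 371 of the series. Tri-C reads a chromatin contact as a ligated fragment that holds a captured viewpoint and at least 2 further restriction fragments, the reporters, and each count is a pair of reporters seen together with the viewpoint, that is, a contact of 3 fragments. The cells were BLaER1, an established human B cell leukaemia line that becomes induced macrophages (iMacs) once C/EBPα, a transcription factor of the myeloid lineage, is switched on. The 0 h cells had no conversion factors added, and the 24 h and 96 h cells were kept for that time in medium with estradiol, which activates C/EBPα, and the cytokines IL-3 and CSF-1. The 4th condition, at 96 h, used BLaER cells in which CTCF carries an auxin-inducible degron, with auxin added together with the conversion factors. Its control is the 96 h library of the BLaER line without auxin, so that loss of CTCF, the degron subclone and auxin cannot be told apart. The enhancer viewpoint was read in all 4 conditions, and a viewpoint at a CTCF-binding site (CBS) near a domain boundary in the 3 without depletion. Each file pools 3 replicates, so each condition is 1 library here, no replicate spread can be given and there are no p-values. Intervals in square brackets are exact 95% intervals for counting error alone.

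RBPJ is the DNA-binding protein through which Notch receptors act on genes. Without Notch signalling it holds corepressors at its sites, and when the Notch intracellular domain enters the nucleus the same protein carries a coactivator complex. Notch acting through RBPJ steers lymphoid fate choices, and RBPJ is also needed for functions of macrophages and dendritic cells. CTCF is a zinc-finger protein that stops loop extrusion by cohesin and so sets the borders of contact domains. The files hold contacts and not RNA, so the level of RBPJ itself was not measured, and no other core component of the Notch pathway was among the captured loci.

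The enhancer viewpoint lies at chr4:26074929-26075058 (hg38), in an intron of the long noncoding RNA gene LINC02357. The CBS viewpoint at chr4:25842345-25842644 lies in an intron of SEL1L3, 232.5 kb from the enhancer and away from RBPJ. The canonical RBPJ start is at position 26321014 on the plus strand, 246.0 kb from the enhancer on its other side and 478.5 kb from the CBS viewpoint. The enhancer thus sat between its boundary site and its promoter. Only 8 of the 51 loci had a longer distance between enhancer and promoter than RBPJ, and the median was 66.7 kb. The annotated gene spans chr4:26163455-26435131, and its outermost annotated start lies 88.5 kb from the enhancer.

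The sequences of the 3 elements whose contacts are reported are shown so that a reader can place the measurements. In the enhancer window of 300 bases (chr4:26074844-26075143, plus strand, hg38) capitals mark the word TTGCNNAA, a C/EBP word, and in the CBS viewpoint fragment (chr4:25842345-25842644, plus strand, hg38) they mark the best match to a CTCF matrix. The RBPJ promoter windows are 2 of the 5 that RefSeq gave for the gene (GRCh38.p14, plus strand). Window 3 (chr4:26320764-26321063) holds the canonical start and has no capitals, and window 2 (chr4:26319496-26319795) lies just upstream, with capitals at a C/EBP word and at the words TGGGAA, the core of the motif that RBPJ itself binds.
RBPJ enhancer viewpoint window: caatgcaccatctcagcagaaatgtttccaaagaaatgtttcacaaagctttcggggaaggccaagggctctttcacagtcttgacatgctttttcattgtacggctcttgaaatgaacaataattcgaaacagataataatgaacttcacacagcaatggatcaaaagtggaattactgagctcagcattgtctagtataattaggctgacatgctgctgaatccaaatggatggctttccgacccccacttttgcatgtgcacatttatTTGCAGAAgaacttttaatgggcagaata
RBPJ CBS viewpoint fragment: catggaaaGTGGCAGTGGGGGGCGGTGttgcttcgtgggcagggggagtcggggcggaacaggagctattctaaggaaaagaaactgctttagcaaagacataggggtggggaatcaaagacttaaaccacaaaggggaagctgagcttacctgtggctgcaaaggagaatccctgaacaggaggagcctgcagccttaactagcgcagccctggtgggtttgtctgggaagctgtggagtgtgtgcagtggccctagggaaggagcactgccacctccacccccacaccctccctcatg
RBPJ promoter window 3: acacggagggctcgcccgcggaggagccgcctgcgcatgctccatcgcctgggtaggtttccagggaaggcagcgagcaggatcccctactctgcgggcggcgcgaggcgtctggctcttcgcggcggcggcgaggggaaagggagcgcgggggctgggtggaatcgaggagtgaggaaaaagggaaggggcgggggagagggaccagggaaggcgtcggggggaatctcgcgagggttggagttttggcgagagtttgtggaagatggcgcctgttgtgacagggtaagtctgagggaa
RBPJ promoter window 2: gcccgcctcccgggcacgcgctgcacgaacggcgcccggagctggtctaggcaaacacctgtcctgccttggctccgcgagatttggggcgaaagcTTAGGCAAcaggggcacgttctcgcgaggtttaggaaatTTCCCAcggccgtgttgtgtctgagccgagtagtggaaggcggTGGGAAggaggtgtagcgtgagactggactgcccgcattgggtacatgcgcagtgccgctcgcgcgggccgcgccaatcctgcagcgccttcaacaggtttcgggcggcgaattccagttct

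Words were searched on both strands. The C/EBP word occurred once in the enhancer window, outside the captured fragment, and once in the CBS fragment, where it is not capitalised. It is held by 17.6% of the enhancer windows of this length at the 51 loci, by 19.6% of the CBS windows and by 10.5% of 35116 promoters. The AP-1 word TGANTCA and the PU.1 word GAGGAAGT had no match in the 4 printed windows (held by 7.71% and 2.59% of promoters). TGGGAA had 2 matches in promoter window 2 and 1 in the CBS fragment, none in the enhancer window, and is held by 24.0% of promoters. The best CTCF match of the CBS fragment, at chr4:25842353-25842371 on the plus strand, scored 10.3 and so fell short of the score of 14.2 that the weakest of the 33 kept matches around the locus reached. Matches that passed were found in windows of 0.3 kb at 14 of the 51 CBS viewpoints (27.5%), and RBPJ ranked 20th of 51 by its score. In windows of 2 kb they were found at 26 of 51, and with the same score RBPJ ranked 47th. These are matches of letters, and binding was not read from them.

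The RBPJ libraries from the enhancer were deep for this series. Their totals, that is, counts whose reporters both lay at most 1 Mb from the viewpoint, were 75417 for 0 h, 86169 for 24 h, 58094 for 96 h and 63566 with CTCF depleted, and all shares below are percentages of these totals unless stated. The CBS viewpoint gave 19413, 23120 and 20172 counts for the 3 time points in order. Distant counts, in which each reporter was over 10 kb away from the viewpoint and from the other one, made up 33.0%, 34.6% and 36.8% of the enhancer totals through conversion but 25.3% in the depleted library. In the depleted library 42.9% of counts also lay on fragments next to each other, against 27.4% in its control, and 58.1% of its fragment pairs were seen once, against 72.7%. Medians over the 51 loci, RBPJ included, differed in the same direction. They were 52.5% with depletion and 39.1% in the control for neighbouring fragments, and 60.3% and 74.4% for pairs seen once. By its share of neighbouring fragments the depleted RBPJ library ranked 47th of 51. The part of this composition in the results was not tested, and values over distant counts therefore stand beside the results of depletion below. The CBS libraries of RBPJ had the smallest distant share of the 51 loci in each of the 3 conditions, from 19.7% to 21.4%.

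Contacts of 3 fragments that held the enhancer and the RBPJ promoter grew at each time point. The E-P-X count, with a reporter within 6 kb of the canonical start, was 477 at 0 h, 976 at 24 h, 1305 at 96 h and 451 with CTCF depleted. As shares these were 0.632% [0.577, 0.692], 1.13% [1.06, 1.21], 2.25% [2.13, 2.37] and 0.709% [0.646, 0.778]. The intervals of the 3 control libraries do not overlap, and the depleted library was close to 0 h over the total. At 24 h against 0 h the log2 odds ratio was 0.85 [0.69, 1.01]. This passed 1.5-fold, as 19.6% of the 51 loci did, and RBPJ ranked 6th of 51. Among the 36 loci in the study's iMac class the median was 0.39, and among the 13 myeloid transcription regulators with RBPJ, which held the 4th place, it was 0.74. From 24 h to 96 h there was a further difference of 1.00 [0.88, 1.13]. The contrast that selected the locus, 96 h against 0 h, was 1.85 [1.70, 2.01], the 4th highest of 51, with 51% of loci past 1.5-fold. The comparisons at 24 h and 96 h share the 0 h library, and the depleted library is compared with the 96 h library of the selecting contrast, so neither is independent of the choice of the locus.

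**Figure D1:**
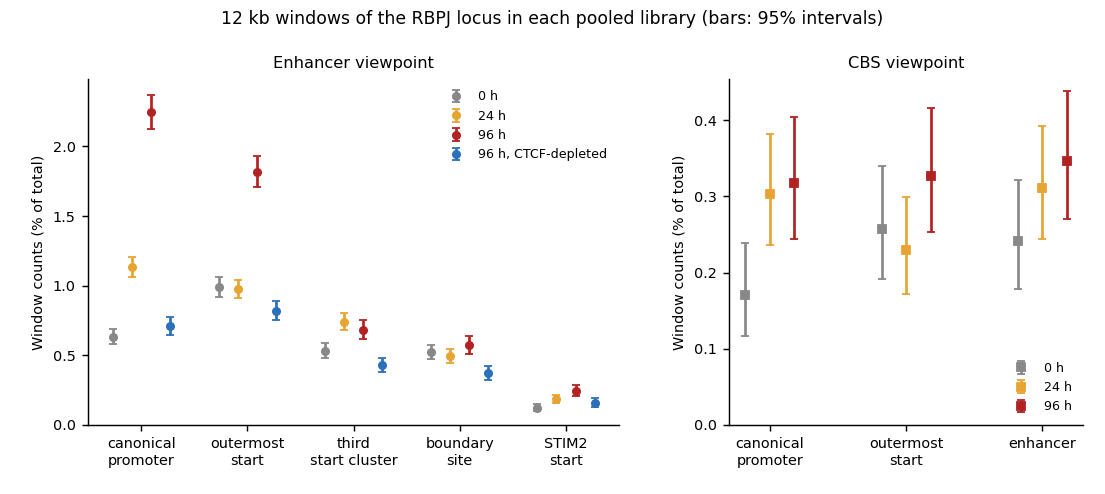
Share of the total (percent, vertical axis) in windows of 12 kb at 3 RBPJ start clusters, the boundary site and the STIM2 start from the enhancer viewpoint (left), and at 2 of these start clusters and the enhancer from the CBS viewpoint (right), with 1 point for each pooled library. Bars are exact 95% intervals for counting error. The promoter from the enhancer goes from 0.632% at 0 h to 2.25% at 96 h and is 0.709% with CTCF depleted.

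Around the canonical start the counts were uneven, and the depleted library lay above 0 h in some steps of the window and below it in others. In steps of 2 kb, the step with most counts lay 4 to 6 kb downstream in all 3 control libraries, with 173, 311 and 341 counts respectively and 107 with depletion. The 2 kb just upstream of the start, where nearly all of both promoter sequences printed above lies, had 51, 136, 258 and 127 counts in the same order. As shares of the total the upstream step had 0.0676%, 0.158%, 0.444% and 0.1998%, so that in the depleted library it stayed above 0 h, whereas the step 4 to 6 kb downstream, with 0.229%, 0.361%, 0.587% and 0.168%, lay below it.

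RBPJ has 7 clusters of annotated starts, and they did not change alike. The canonical cluster holds 30 transcripts, 18 of them coding. The window at the outermost cluster, 88.5 kb from the enhancer, had 746, 841, 1055 and 521 counts at 0 h, 24 h, 96 h and with depletion. Its interval at 24 h included 0 (-0.02 [-0.16, 0.12]), when the canonical window already stood at 0.85, and at 96 h it stood at 0.89 [0.75, 1.03]. The next cluster downstream of the canonical start, from position 26343140, had 400, 638, 395 and 272 counts, with 0.48 at 24 h and 0.36 at 96 h. The 4 clusters further downstream ranged from -0.04 to 0.25 at 24 h and from -0.55 to 0.18 at 96 h, none past 1.5-fold, and the windows of the last 2 overlap.

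The stretch before the promoter held more contacts at 96 h, and both flanks of the locus fewer. The locus was divided at the boundary site, the enhancer, the outermost start, the canonical start and the gene end, and reporters of distant counts were assigned to the stretches. The stretch from the outermost to the canonical start, which the annotation gives as the first part of RBPJ, held 13.7% of distant reporters at 0 h, 14.2% at 24 h, 22.8% at 96 h and 16.3% with depletion. Beyond the boundary site, away from the gene, the shares were 12.5%, 11.01%, 6.15% and 15.97%, and beyond the gene end they were 19.6%, 21.4%, 12.6% and 17.2%. The stretch from the boundary site to the enhancer stayed between 24.2% and 25.3% in all 4 libraries. The body of RBPJ downstream of the canonical start had 9.42%, 10.3%, 8.71% and 6.70%, so the higher share of the upstream part at 96 h was not shared by the downstream part.

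At 96 h a larger part of the distant pairs lay inside the interval from the boundary site to the end of RBPJ, 592.6 kb long. This interval was set after the map of pairs had been seen. Pairs with both reporters inside it were 50.3% [49.71, 50.96] of the distant pairs before conversion, 50.2% [49.7, 50.8] after 24 h, 69.6% [69.0, 70.2] after 96 h and 48.99% [48.2, 49.8] after 96 h with CTCF depleted. The interval of the 24 h library against 0 h included 0 in this measure (log2 odds ratio -0.0049 [-0.039, 0.029]), although its promoter contact was already higher. Pairs with both reporters outside were 15.2%, 15.5%, 7.60% and 15.7%, with the 96 h control alone standing apart.

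**Figure D2:**
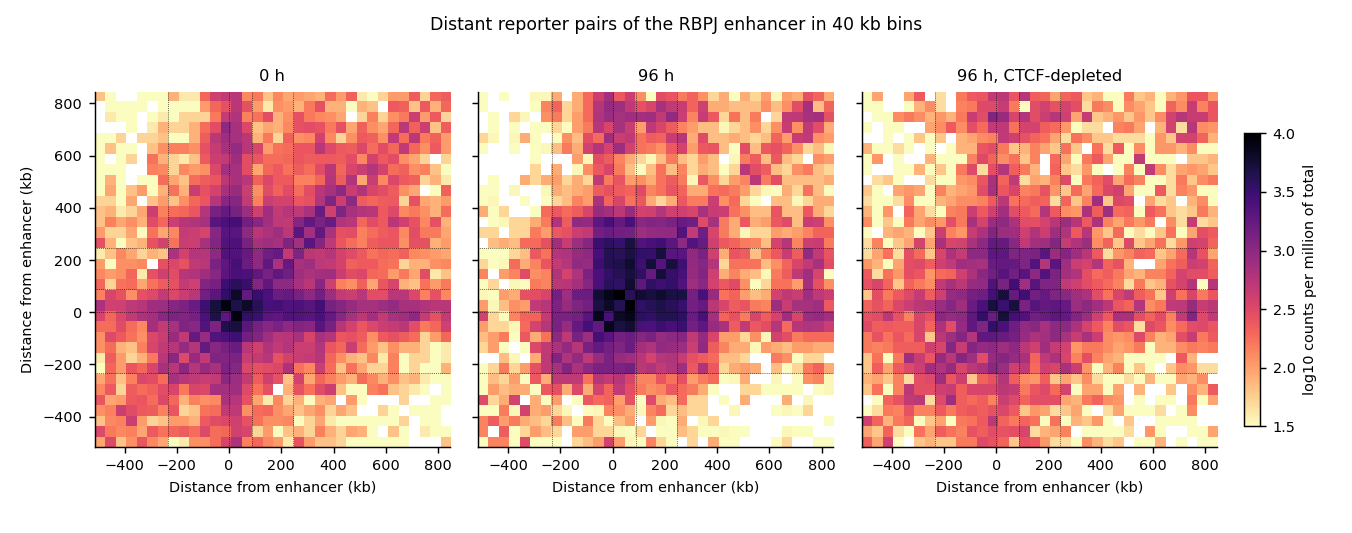
Distant counts of the RBPJ enhancer viewpoint for each pair of 40 kb bins at 0 h, at 96 h and at 96 h with CTCF depleted, with both axes as distance from the enhancer (kb) and colour as log10 of the counts normalised to the total, and dotted lines at the boundary site, the enhancer, the outermost start and the promoter. Counts at 96 h are concentrated between the boundary site and the gene end, where 69.6% of distant counts have both reporters, against 50.3% at 0 h.

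In bins of 10 kb, counted from distant pairs and kept with at least 20 counts over both libraries, 199 bins were measured at 24 h against 0 h. Of these 18, or 9.05%, were past 1.5-fold higher and 14, or 7.04%, past 1.5-fold lower, below the background of 14.4% and 16.1% over the bins of all 51 loci. The 14 lower bins were all among the 76 beyond the boundary site, and 14 of the 18 higher ones among the 63 beyond the gene end. These flanks held most of the bins. With both shares below background, nothing is read from these positions. At 96 h against 0 h 30 of 199 bins were higher, 15.1% against a background of 15.3%, and 89 were lower, 44.7% against a background of 29.7%. The median bin stood at -0.46. Nothing is read from these shares, as the locus was selected on this contrast.

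Higher bins at 96 h formed a block upstream of the canonical start. Of the 16 bins between the outermost and the canonical start 14 were past 1.5-fold higher, with a median of 0.83. The longest run held 10 bins at chr4:26230001-26330000, the bin of the promoter included, with a median of 1.12. Within it the promoter bin had 450, 985, 1151 and 398 counts at 0 h, 24 h, 96 h and with depletion, the largest rise at 96 h of the 165 bins with at least 100 counts (1.75). An intronic bin 200 kb from the enhancer, at 26270001, had 438, 647, 1003 and 438 counts (1.59). The bin at 26150001, in front of the outermost start, had 715, 981, 1554 and 525 counts (1.52), the most of the 6 bins of largest rise. This block ended at the promoter, since of the 11 bins from there to the gene end none was past 1.5-fold higher and 1 was lower.

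A second, separate patch of higher bins lay far beyond RBPJ. It ran over 8 bins at chr4:26800001-26880000, 725 to 805 kb from the enhancer, with a median of 1.05, and ended in STIM2, which encodes a calcium sensor of the endoplasmic reticulum. Its peak bin, at 26820001, had 103, 229, 260 and 233 counts at 0 h, 24 h, 96 h and with depletion. At 24 h 4 bins at chr4:26790001-26830000, which overlap the patch in part, formed the only run of higher bins, with a median of 0.95. The share of higher bins at 24 h was below background, so no early rise of the patch is read from this run. With CTCF depleted 7 of the 8 bins, the peak bin with -0.29 among them, stayed within 1.5-fold of the control over the total, unlike the promoter bin (-1.68). The exception was 26860001, which went from 112 to 61 counts (-1.002 [-1.48, -0.55]). Staying within 1.5-fold was common in this flank. Of the 63 bins beyond the gene end 12 were past it on the higher side and 9 on the lower side, with a median of -0.02. The STIM2 patch held 1 CTCF match, on the minus strand, with a score of 15.1, where the lowest kept was 14.2. Matches were kept at 15 per Mb, and 27 of the 199 bins measured at 96 h against 0 h held one. A match thus does not mark the patch out. It is printed here with 10 bases on each side and the match in capitals (chr4:26821812-26821850, hg38).
CTCF match in the STIM2 patch: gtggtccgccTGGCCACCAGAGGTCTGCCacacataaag

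The lower bins at 96 h lay mostly outside the interval. Beyond the boundary site 54 of 76 bins were past 1.5-fold lower, with a median of -0.96, and the longest run held 14 bins at chr4:25580001-25720000 with a median of -1.35. Beyond the gene end 33 of 63 were lower, with runs of 11 bins at chr4:26450001-26560000 and of 10 bins at chr4:26600001-26700000, which reached into the gene TBC1D19. The bin of largest fall among those with at least 100 counts, at 26500001, had 263 counts at 0 h, 353 at 24 h and 49 at 96 h. It was thus higher in counts at 24 h, and the fall came after that time.

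**Figure D3:**
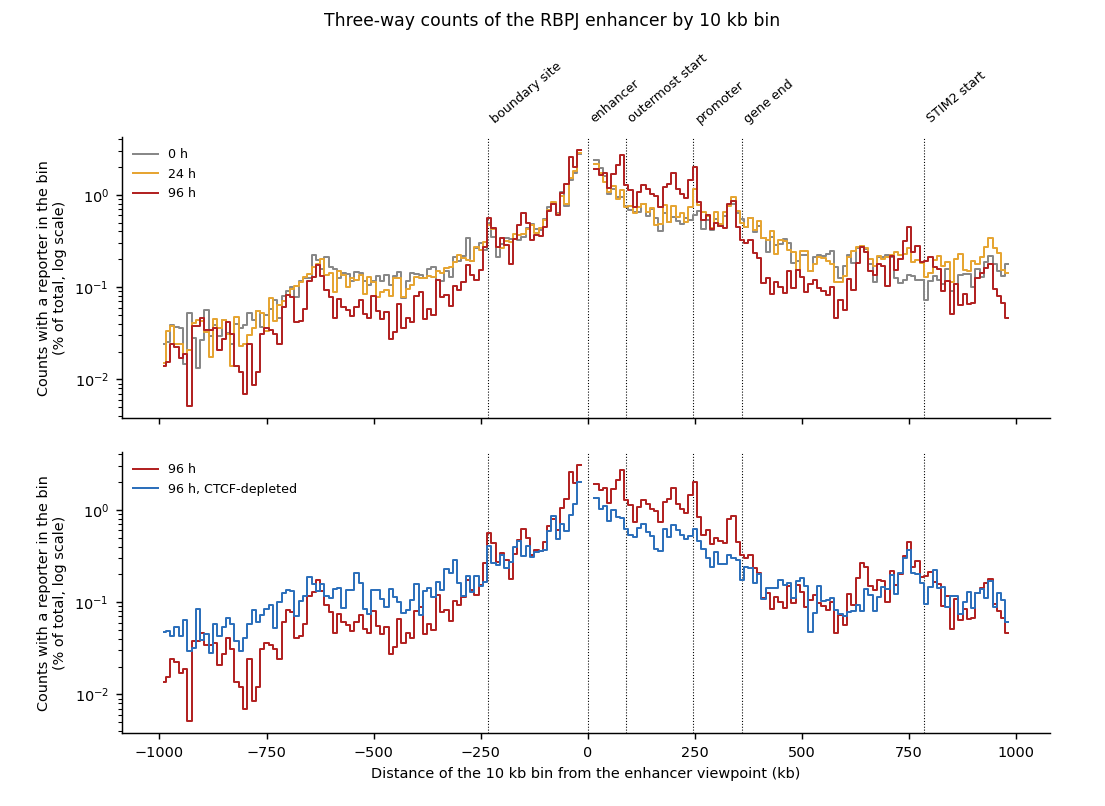
Share of the total in bins of 10 kb (percent, vertical log axis) against distance from the enhancer viewpoint (kb), for the 3 control libraries of the RBPJ enhancer viewpoint (top) and for the depleted library with its 96 h control (bottom), with dotted lines at the boundary site, enhancer, outermost start, promoter, gene end and STIM2 start. The promoter bin goes from 450 counts at 0 h to 1151 at 96 h.

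**Figure D4:**
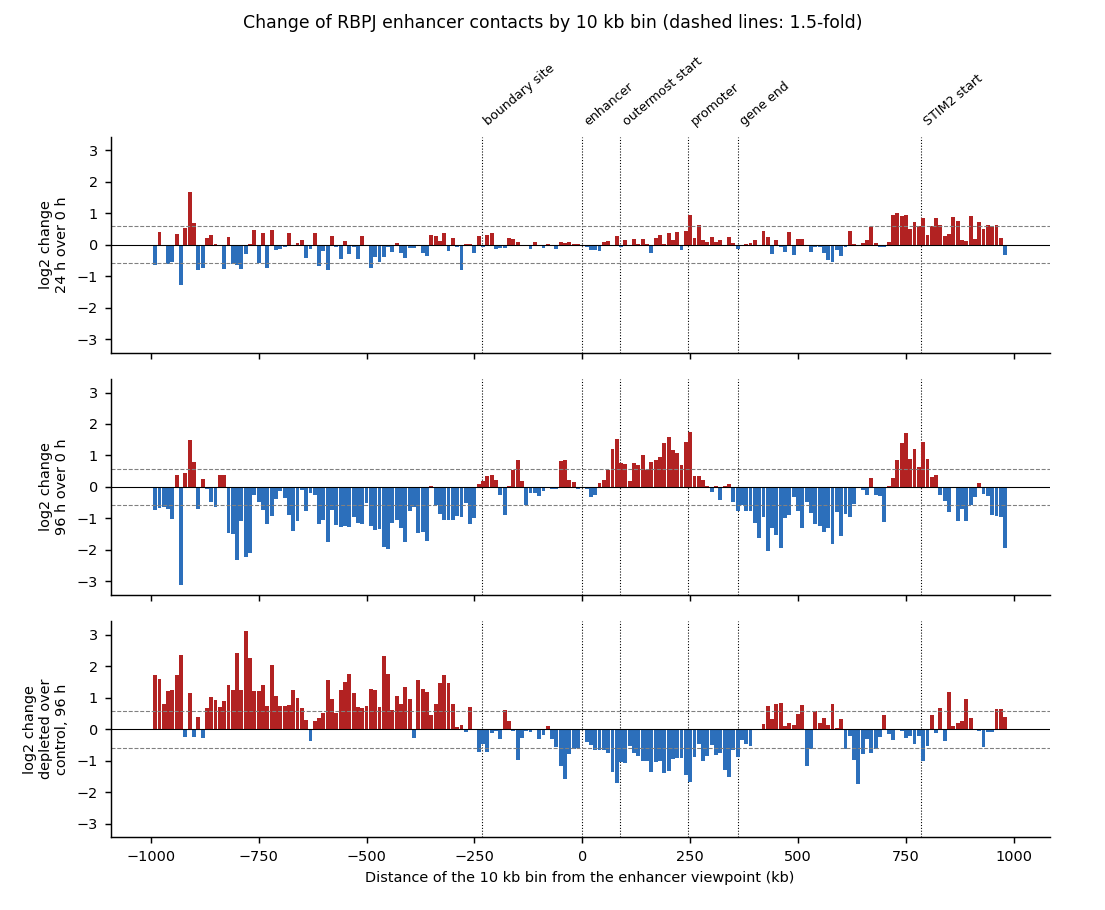
Log2 change of each measured 10 kb bin (vertical axis) against distance from the enhancer viewpoint (kb), with 1 panel each for 24 h over 0 h, 96 h over 0 h and CTCF-depleted over control at 96 h, and dashed lines at 1.5-fold. At 96 h, 14 of 16 bins between the outermost and the canonical start are higher and 54 of 76 beyond the boundary site are lower.

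Contact of the enhancer with the boundary site itself stayed within 1.5-fold through conversion. The E-C-X count, with a reporter within 6 kb of the CBS viewpoint, was 392 at 0 h, 425 at 24 h, 332 at 96 h and 235 with depletion. Here C is this 1 site and X any distant fragment. In the paper's E-C-X hubs X is a further regulatory element, so the 2 measures are not alike. The shares were 0.520%, 0.493%, 0.572% and 0.370%, and the intervals of the first 3 overlap. At 24 h the log2 odds ratio was -0.08 [-0.28, 0.13], not past 1.5-fold, with 3.92% of the 51 loci past it on the lower side. At 96 h it was 0.14 [-0.08, 0.35], whereas 41.2% of loci were past 1.5-fold higher. This put RBPJ 12th of the 13 myeloid transcription regulators, whose median was 0.90, and 27th of 36 iMac loci.

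The promoter side of the enhancer held more pairs as conversion went on, and the other side fewer. Distant pairs with both reporters on the promoter side were 43.1% of them before conversion, 45.9% after 24 h, 49.5% [48.9, 50.2] after 96 h and 38.8% after 96 h with CTCF depleted. With both on the boundary's side they were 19.7%, 17.6%, 14.1% and 22.6%, while pairs that spanned the enhancer made up 36.4% to 38.6% in all 4 libraries. Spanning pairs thus kept a near constant share while the sides moved in opposite directions.

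Contact past the boundary site changed more than contact with it. Of the distant reporters on the boundary's side, 33.5% lay beyond the site at 0 h, 31.3% at 24 h, 19.5% at 96 h and 38.8% with depletion. The log2 odds ratios were -0.14 at 24 h and -1.05 [-1.12, -0.99] at 96 h. RBPJ was 45th of 51 from the top at 96 h, and the iMac median was -0.69.

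The triple of enhancer, promoter and boundary site in 1 contact (E-P-C) was rare. There were 0 at 0 h, 8 at 24 h, 15 at 96 h and 0 with depletion, with exact upper limits of 0.0049% and 0.0058% of the total where none was seen. From the CBS viewpoint the same triple was seen 1, 0 and 0 times, with upper limits of 0.016% and 0.018% at 24 h and 96 h. The share from the enhancer at 96 h was 0.0258% [0.0145, 0.0426]. The upper limit of 0.018% from the CBS viewpoint at 96 h lies below this share but inside its interval. Distant counts made up 36.8% of the enhancer total at 96 h but 21.4% of the CBS total at 96 h. The shares of these viewpoints are therefore not directly comparable, and a difference between them was not tested.

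The other fragment found together with enhancer and promoter was spread over the locus, and no bin of 10 kb held more than 4.92% of these partners in any library. At 96 h the leading bin was 26150001, with 59 of 1304 partner counts, followed by the neighbouring bin 26140001 with 54 and by 26030001, on the other side of the enhancer, with 52. At 0 h and 24 h the leading bin was 26090001, beside the enhancer, with 23 of 477 and 48 of 976. With depletion the bins 26040001, beside the enhancer, and 26280001, in the gene 210 kb away from it, led with 20 of 451 each. Partners between the outermost and the canonical start were 16.98% [13.7, 20.7] of all at 0 h, 22.2% at 24 h and 27.2% [24.8, 29.7] at 96 h. Among all distant reporters outside the promoter the same stretch held 13.8% at 0 h, 14.4% at 24 h and 23.5% at 96 h, which lies within the partners' interval at 0 h and below it at 24 h [19.7, 25.0] and 96 h. In the depleted library this stretch held 25.1% [21.1, 29.3] of the partners, also above the 16.5% of all distant reporters. It adjoins the promoter, and distance from the promoter was not taken into account. Other stretches differed too. From the enhancer to the outermost start partners were 24.5% [22.2, 27.0] at 96 h, above 21.3%, and 11.1% [8.34, 14.4] with depletion, below 16.8%. Partners beyond the boundary site were 5.87%, 6.66% and 3.37%, lower than the 12.7%, 11.2% and 6.34% of all distant reporters at the same times. With depletion they were 14.9% [11.7, 18.5], an interval that includes the 16.2% of all distant reporters.

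The canonical and the outermost start of RBPJ also met in the same contact with the enhancer. Pairs with 1 reporter at the canonical and 1 at the outermost start were 8 at 0 h, 13 at 24 h, 44 at 96 h and 0 with depletion, with a log2 odds ratio at 96 h against 0 h of 2.77 [1.73, 4.14]. Relative to the product of both window counts the change was 0.22. The promoter and the STIM2 start were joined in 2, 1, 1 and 3 counts, too few to compare.

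The starts of 10 neighbouring coding genes were measured from the enhancer. These are windows of 12 kb at starts, whereas the shares given beside them are of bins of 10 kb, an unlike unit. At 96 h against 0 h 3 were past 1.5-fold higher and 4 lower, beside 15.3% and 29.7% of all bins, and at 24 h 2 were higher and 1 lower, beside 14.4% and 16.1%. STIM2 had 90, 160, 141 and 101 counts at 0 h, 24 h, 96 h and with depletion (0.64 at 24 h and 1.02 at 96 h). SEL1L3, the gene that holds the CBS viewpoint, had 206, 347, 255 and 233 counts (0.69 at 96 h). SEPSECS, which acts in selenocysteine synthesis, had 22, 42, 27 and 34 counts, with 0.67 [-0.19, 1.55] at 96 h, an interval that includes 0. Among the lower ones, SLC34A2, a sodium-phosphate cotransporter gene, had 125, 89, 28 and 61 counts (-1.76 at 96 h). CCKAR, the gene of a cholecystokinin receptor, which lies beyond the end of RBPJ, had 247, 349, 92 and 94 counts (-1.05). TBC1D19 had -0.77 and ZCCHC4, a ribosomal RNA methyltransferase gene, -0.64 [-1.53, 0.16], an interval that includes 0. SMIM20, whose product helps assemble a respiratory chain complex, had 0.56, short of 1.5-fold, and PI4K2B and ANAPC4 had 0.06 and 0.08.

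In the CTCF-depleted library the E-P-X share of the total was near its level at 0 h. Such counts need a further distant fragment beside enhancer and promoter, so contact of these 2 alone was not measured here. The paper reports that pairwise enhancer-promoter interactions, read by another method (MCC), stayed relatively stable at upregulated loci after CTCF depletion. By Tri-C from enhancers it reports that contacts of several elements at such loci were strongly reduced, most of all those with a CBS. Against its 96 h control the depleted library had a log2 odds ratio of -1.68 [-1.84, -1.53] in the promoter window. Of the 51 loci 78.4% were past 1.5-fold lower here, and RBPJ ranked 49th from the top, 34th of 36 iMac loci, whose median was -1.06. Over distant counts it was -1.17 [-1.33, -1.01]. Against 0 h the depleted library stood at 0.17 [-0.02, 0.36] over the total and at 0.57 [0.38, 0.75] over distant counts, so the distance from the starting level depends on the denominator.

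The window of the boundary site, which 86.3% of loci had past 1.5-fold lower, stood at -0.63 [-0.88, -0.39] over the total at RBPJ and at -0.09 [-0.33, 0.16] over distant counts. Over distant counts the interval includes 0. Reach past the site was higher, with a log2 odds ratio of 1.39 [1.32, 1.46], the 5th highest of 51 with an iMac median of 0.70. This measure uses distant reporters only.

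In bins, taken over the total, 72 of 198 were past 1.5-fold higher with CTCF depleted, 36.4% against a background of 16.9%, and 48 were lower, 24.2% against 35.5%. Over distant counts, an alternative added after the data were seen, 100 were higher and 13 lower, with backgrounds of 36.7% and 9.83%. Of the 76 bins beyond the boundary site 59 were higher over the total, with a median of 0.97, and 68 over distant counts. Of those with at least 100 counts the one of largest rise was 25610001, with 16 counts in the control and 89 in the depleted library (2.31). Between the outermost and the canonical start 15 of 16 bins were lower over the total but 4 over distant counts, and from there to the gene end 9 of 11 over the total but 2 over distant counts. As shares of distant reporters, these stretches differed by -0.60 [-0.65, -0.55] and -0.41 [-0.49, -0.33]. The bin of largest fall, at 26710001 in an intron of TBC1D19, went from 156 to 51 counts (-1.74, or -1.20 over distant counts). The bin at 26410001, near the end of RBPJ, went from 493 to 190 (-1.51, or -0.98 over distant counts) although it had differed little between 0 h and 96 h (0.08). It holds 2 CTCF matches, at 26410884 and 26415660. Over all bins with a match the median change with depletion was -0.11 over the total (27 bins), and over those without it was 0.10 (171 bins).

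All 7 start clusters of RBPJ had fewer counts in the depleted library relative to its total, from -0.67 at the third to -1.68 at the canonical one. Over distant counts they ranged from -0.13 to -1.17, and the intervals of 4 included 0. Past 1.5-fold lower were 2 of the 7, the canonical one and the outermost one with -0.63 [-0.78, -0.48]. Of all bins of 10 kb 9.83% were, a share not taken over windows of 12 kb at starts, so no excess is read. The same holds for the shares of bins given beside the neighbouring genes. Of the 10 neighbouring genes 3 were past 1.5-fold higher over the total, beside 16.9% of all bins, and all of them lay beyond the boundary site. These were ZCCHC4 with 1.46, PI4K2B, a phosphatidylinositol 4-kinase gene, with 1.05 and SLC34A2 with 0.98. STIM2 was past it on the lower side with -0.61, beside 35.5% of all bins, but over distant counts it stood at -0.07 [-0.45, 0.31]. Over distant counts 6 neighbours were past 1.5-fold higher and none lower, beside 36.7% and 9.83% of all bins. ZCCHC4 then had 2.00, PI4K2B 1.60 and SLC34A2 1.53, and ANAPC4 had 1.11, TBC1D19 0.84 and SEPSECS 0.74 [-0.03, 1.53], of which the last includes 0.

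From the CBS viewpoint the RBPJ promoter was also contacted more after conversion began, at much lower counts. The C-P-X count was 33 at 0 h, 70 at 24 h and 64 at 96 h, or 0.170% [0.117, 0.239], 0.303% [0.236, 0.382] and 0.317% [0.244, 0.405]. The 24 h and 96 h libraries did not differ beyond their intervals. At 24 h the log2 odds ratio was 0.82 [0.22, 1.48], past 1.5-fold with 22.9% of 48 measured loci, and RBPJ ranked 3rd. At 96 h it was 0.89 [0.27, 1.55], 12th of 48, with 43.8% past 1.5-fold higher. The outermost RBPJ start had 50, 53 and 66 counts, with -0.17 [-0.75, 0.42] at 24 h and 0.34 [-0.21, 0.91] at 96 h. Of these 2 starts the canonical one had the larger value at both times, as from the enhancer, and the intervals of these differences overlap. Other start clusters were also higher at 96 h, the 3rd with 0.63 [0.04, 1.25] and the 5th with 0.71 [0.05, 1.41]. The 4th, 6th and 7th had 0.01, 0.41 and -0.21, with intervals that include 0. From the promoter to the gene end 4 of 11 bins were past 1.5-fold higher, with a median of 0.52. Between the outermost and the canonical start 3 of 16 were, with a median of 0.16.

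The enhancer seen from the CBS viewpoint had 47, 72 and 70 counts (C-E-X). Its log2 odds ratios were 0.36 [-0.19, 0.93] at 24 h, with 11.8% of loci past 1.5-fold higher, and 0.52 [-0.03, 1.09] at 96 h, with 37.3%. Both intervals include 0, so no difference was detectable at this depth.

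Bins of the CBS viewpoint at 24 h were past 1.5-fold higher in 34 of 177 (19.2%) and lower in 15 (8.47%), against backgrounds of 16.2% and 6.92%. At 96 h 29 of 170 (17.1%) were higher and 24 (14.1%) lower, against 15.9% and 16.6%, so that the counts of higher and lower bins were near those of other loci. The 39 bins past the gene end held 15 of the 29 higher ones at 96 h, and 2 lower ones. In the stretch beyond the boundary site 3 of 65 bins were higher and 19 lower. Runs of higher bins lay at chr4:26700001-26740000, in and near TBC1D19, with a median of 1.64, and at chr4:26810001-26840000, within the patch seen from the enhancer, with 1.60. In the latter, which lies near the limit of 1 Mb from this viewpoint, the bins had at most 30 counts. Of 10 measured neighbouring genes 2 were higher and 2 lower at each time. ANAPC4, a subunit gene of the anaphase-promoting complex, had 0.71 [0.06, 1.42] at 24 h and 0.66 [-0.02, 1.39] at 96 h. CCKAR had 0.77 [0.02, 1.59] and 0.64 [-0.15, 1.49]. The lower ones were LGI2 with -0.59 and TBC1D19 with -0.78 at 24 h, and LGI2 with -0.83 and ZCCHC4 with -0.75 at 96 h. The intervals of all 4 of these values include 0, as do those of ANAPC4 and CCKAR at 96 h.

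**Figure D5:**
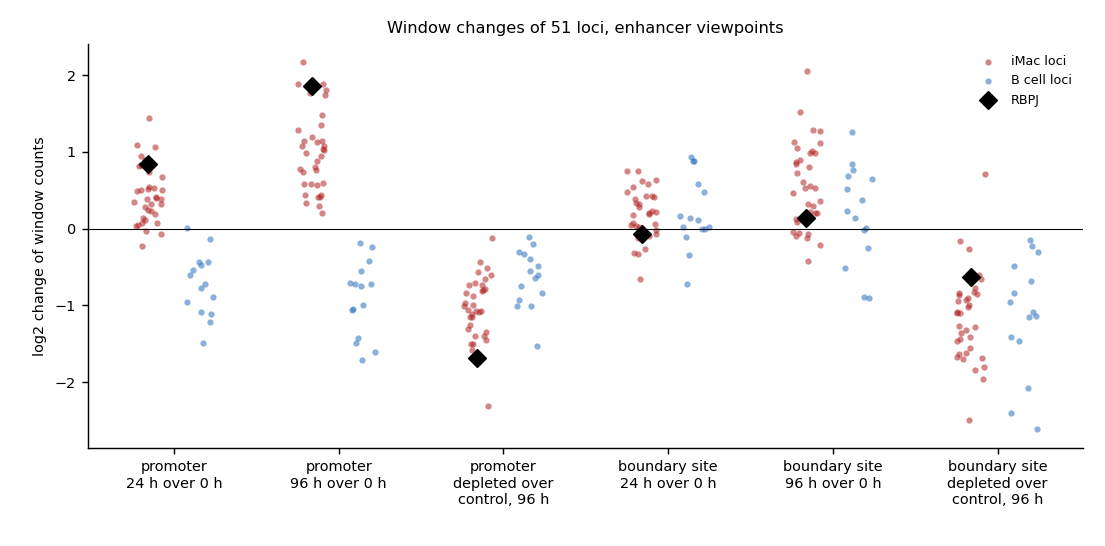
Log2 odds ratios of window counts (vertical axis) at the 51 loci, as points by class, with RBPJ marked, for the promoter and boundary windows from the enhancer viewpoints in each comparison. RBPJ is 6th of 51 for the promoter at 24 h and 49th with CTCF depleted.

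Over the 5 changes of the promoter window, PELI1 and TRPS1 were among the 3 closest to RBPJ of the 47 other loci with enough counts in all of them. PELI1, an E3 ubiquitin ligase gene of Toll-like receptor signalling, had 0.95, 1.74, -1.06, 0.74 and 0.97 for the enhancer at 24 h, at 96 h and with depletion and for the CBS viewpoint at 24 h and 96 h, at a Euclidean distance of 0.65. TRPS1, the gene of a GATA-type zinc-finger repressor, was at a distance of 0.83. The corresponding RBPJ values are 0.85, 1.85, -1.68, 0.82 and 0.89. The comparisons share libraries, and no inference is drawn from this likeness.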

How the data were processed

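For Tri-C, the authors digested chromatin of BLaER1 cells with NlaIII and captured viewpoints. Reads were processed with CapCruncher in capture mode against hg38 (per the labels), merged over 3 replicates and reduced to reads with at least 2 reporters on the viewpoint's chromosome. The deposited unit is a count per pair of reporter fragments. Here, raw counts were summed in windows of 12 kb and bins of 10 kb, and compared as log2 odds ratios with a pseudo-count of 0.5, exact conditional binomial intervals, and exact Clopper-Pearson intervals for shares (95%). Pairs from a read are not independent, and reads without molecular identifiers are not independent molecules, so intervals cover counting error only. Past 1.5-fold required at least 20 counts over both libraries. Bins named were the 6 of largest rise and fall with at least 100 counts. Windows named were all RBPJ starts and neighbouring coding genes. Start sites and gene bodies came from the reference gene annotation for hg38. CTCF matches used a matrix written from general knowledge, and kept the 15 best per Mb. RBPJ and all lists were chosen with earlier results of these data known. Summaries cover 51 of the 53 loci, and values of some single loci are not reported here. The scripts were tested on simulated data and used matplotlib 3.10.9, SciPy 1.17.1, pandas 2.3.3 and NumPy 2.4.6 under Python 3.11.15. The alternatives tried were a window of 30 kb, the outermost start, the distant total, each pair counted once, an exclusion of 20 kb and bins of 20 kb.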

Additional observations from a re-analysis of the deposited data

How the results depend on the processing

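No paired analysis was possible because each file pools the replicates of its condition, and for the same reason no replicate could be left out. Of 52 alternatives, 35 left the result within its interval or, for a count of bins, within 1.5 times. A further 15 moved it, and 2 turned the sign of a value past 1.5-fold. Smaller values also changed sign within their intervals. The boundary site from the enhancer at 24 h went from -0.08 to 0.12 (30 kb) and 0.027 (each pair counted once). At 96 h it went from 0.14 to -0.020 over the distant total. For the promoter window from the enhancer, windows of 30 kb gave 0.52 at 24 h, 1.32 at 96 h and -1.46 with depletion, and the outermost start in place of the canonical one gave -0.020 (24 h), 0.89 (96 h) and -1.16 (depletion). The depletion value was also -1.39 with each fragment pair counted once and -1.17 over the distant total. For the boundary site it was -0.38 with each pair counted once and -0.086 over the distant total, and for the share beyond the site 1.29 with an exclusion of 20 kb. The promoter window from the CBS viewpoint at 24 h was -0.17 at the outermost start. In bins of 20 kb the numbers past 1.5-fold were 10, 60 and 56 from the enhancer (24 h, 96 h, depletion) against 32, 119 and 120 in bins of 10 kb, and 22 and 25 from the CBS viewpoint (24 h, 96 h) against 49 and 53, where fewer bins were measured by construction. Over the distant total, added after the data were seen, 113 bins were past 1.5-fold with depletion. Depth limits the CBS viewpoint most, with 33 to 72 counts in the promoter and enhancer windows.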

Other observations

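Counts with a reporter beyond 1 Mb of the viewpoint were left out of the totals. Of the counts on the chromosome from the RBPJ enhancer, 18.2%, 17.4%, 17.1% and 16.2% had 1 reporter beyond 1 Mb at 0 h, 24 h, 96 h and with CTCF depleted, and 18.8%, 16.8%, 15.9% and 28.0% had both there. Contacts of the promoter window with a reporter beyond 1 Mb numbered 129, 246, 325 and 147.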
